A study of Mus musculus with 6 samples.

Results

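The ubiquitin-specific proteases, whose genes carry the symbol Usp and a number, were described across linear and circular RNA of the mouse prefrontal cortex. Members were all genes with such a symbol in the deposited linear table, summed over the isoforms that share exons with them, and all circular RNAs (circRNAs) assigned to these genes or to their isoforms. The related Usp9x and Usp9y were left out by name, while Usp27x was kept, and isoforms lying within introns were not summed. This gave 56 of 54787 genes, 435 of 175010 isoforms and 169 of 17369 circRNAs. Of the 56 genes, 53 carry the symbol of a protease or a protease-like gene. The other 3 were matched by their symbol alone. They are Usp6nl, which encodes an activator of Rab GTPases, and Usp46os1 and Usp46os2, transcripts on the strand opposite to Usp46.

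Both groups were male C57BL/6 mice, and prefrontal cortex was taken at 30 weeks of age. The PS_high group (3 samples) had received polystyrene nanoparticles (PS NPs) at 50 mg/kg by gavage each day for 6 months, starting at 5 weeks of age, and the control group (3 samples) water on the same schedule (0 mg/kg). The labels do not say whether the samples of a group came from separate animals, so that p-values measure only the spread between these samples. Total RNA depleted of ribosomal RNA was sequenced, which keeps circRNAs. The tissue holds many cell types, so fewer cells of a type and less RNA per cell cannot be told apart.

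Ubiquitin-specific proteases are cysteine proteases that remove ubiquitin from proteins or shorten ubiquitin chains, and in this way oppose ubiquitin ligases. They form the largest family of deubiquitinases, and single members act at the proteasome, on histones, at endosomes or on mitochondria. In mouse brain, loss of Usp14 causes ataxia with defects of synaptic transmission, and Usp46 variants alter behaviour in the tail suspension test. circRNAs arise when the end of an exon is joined to the start of an exon further upstream (back-splicing), and they are abundant in brain because they have no free ends and decay slowly.

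Estimated counts in the gene sums were between 43030348 and 54105413 per library, and back-splice reads between 15658 and 19957. On the first principal component of 2000 variable genes, which held 28% of the variance, PS_high 1 lay at 41.1 and the other 5 libraries between -21 and 14.2. Over all 20272 genes with a mean of at least 0.5 FPKM, 0.00987% were higher and 0.0148% lower in PS_high at an adjusted p under 0.05 (edgeR quasi-likelihood test, Benjamini-Hochberg adjustment). Summed depth-scaled counts (CPM) of neuronal markers were between 4902 and 5422 in PS_high and between 3572 and 4213 in control, with Snap25 at 1368 ± 268 CPM in PS_high and 497 ± 99.1 in control (SD, n = 3 each). Without Snap25 the sum of the other 6 neuronal markers overlapped, at 3535 to 4164 CPM in PS_high and 3173 to 3716 in control. Of the 7 markers 5 had log2 differences above 0 and 2 below, Rbfox3 at -0.17 and Slc17a7 at -0.15, and 0 passed. Summed choroid plexus markers were between 20.5 and 817 CPM in PS_high and between 10.9 and 438 in control, lowest in PS_high 1 and control 1. All 5 choroid plexus and all 4 tested meningeal fibroblast markers had log2 differences above 0 (medians 0.84 and 0.61). All 5 oligodendrocyte and all 5 blood markers lay below 0 (medians -0.15 and -0.47). Markers of astrocytes, microglia and endothelium lay on both sides of 0, and 0 markers of these lists passed. The part of these markers in the values below was not tested.

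No member gene passed the test. Of the 47 members with a mean of at least 0.5 FPKM, 0 were higher and 0 lower at an adjusted p under 0.05 in edgeR. DESeq2 called 1, Usp49 (2.13%, against 0.232% of all genes), and limma on FPKM 0 (0% of all genes). Log2 differences of PS_high minus control lay above 0 in 25 and below 0 in 22 of them. Their median was 0.020, beside -0.0075 over all genes tested, and 37 of 47 were within 0.25 of 0. An unadjusted p under 0.05 was found for 3 members (6.38%, against 2.73% of all genes): Usp49, Usp28 and Usp31. The 3 PS_high libraries lay apart from the 3 control libraries in 4 members (8.51%, against 7.09% of all genes), the same 3 and Usp38. The median standard error (SE) of a member's log2 difference was 0.183, beside 0.268 over all genes.

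**Figure D1:**
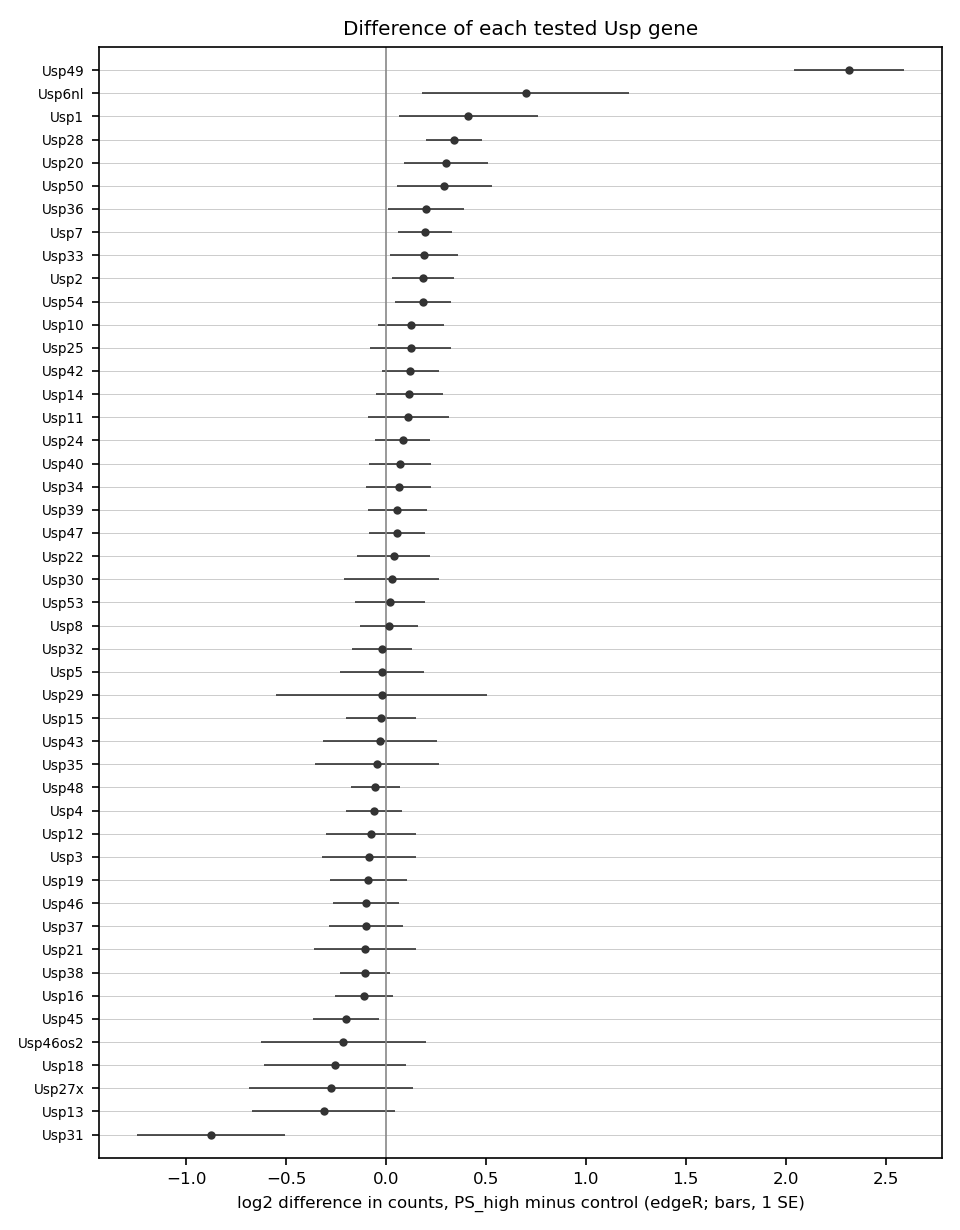
Log2 difference in estimated counts, PS_high minus control, for the 47 tested Usp genes in order of size (points, edgeR estimate; bars, 1 SE; 3 libraries per group). Usp49 at 2.32 lies apart from the other members, and 44 of 47 lie within 0.5 of 0.

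As a family the genes were well expressed. FPKM divides by transcript length, so that genes can be ranked by it. The gene value is a sum over isoforms, so it also depends on the isoforms to which counts were assigned. For Usp3, PS_high 1 was the highest library by FPKM (11.4) and the lowest by CPM (23.3). The median over the 47 tested members was 9.66 FPKM, against 3.34 FPKM over all genes tested. Usp14, the deubiquitinase that trims ubiquitin chains at the proteasome, was highest at 56.3 ± 5.49 FPKM in PS_high and 53.9 ± 4.05 in control (SD, n = 3 each). Usp34, which acts on Wnt signalling, had 44.3 to 58.2 FPKM in PS_high and 50.0 to 57.2 in control. Usp7, which acts on MDM2 and p53, averaged 52.7 ± 4.87 FPKM in PS_high and 47.6 ± 4.04 in control. The ranges of these 3 genes overlapped, so that their order is not separated by the spread between libraries. Usp32 (38.1 FPKM over the 6 libraries), Usp22 (31.4) and Usp46 (30.1) came next, and 23 members reached at least 10 FPKM. At the low end stood Usp50 (1.53), Usp46os2 (1.33), Usp43 (0.806) and Usp18 (0.604).

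The 9 members below the filter were not tested. Usp51 averaged 0.489 FPKM, Usp46os1 0.476, Usp44 0.0394 and Usp26 0.0292 over the 6 libraries. Of the Usp17-like genes, which are near-identical copies of each other, Usp17lc was listed at 0.0106 FPKM in PS_high 3 and at a count of 0 in the other 5 libraries. Usp17la, Usp17lb, Usp17ld and Usp17le had a count of 0 in all 6.

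**Figure D2:**
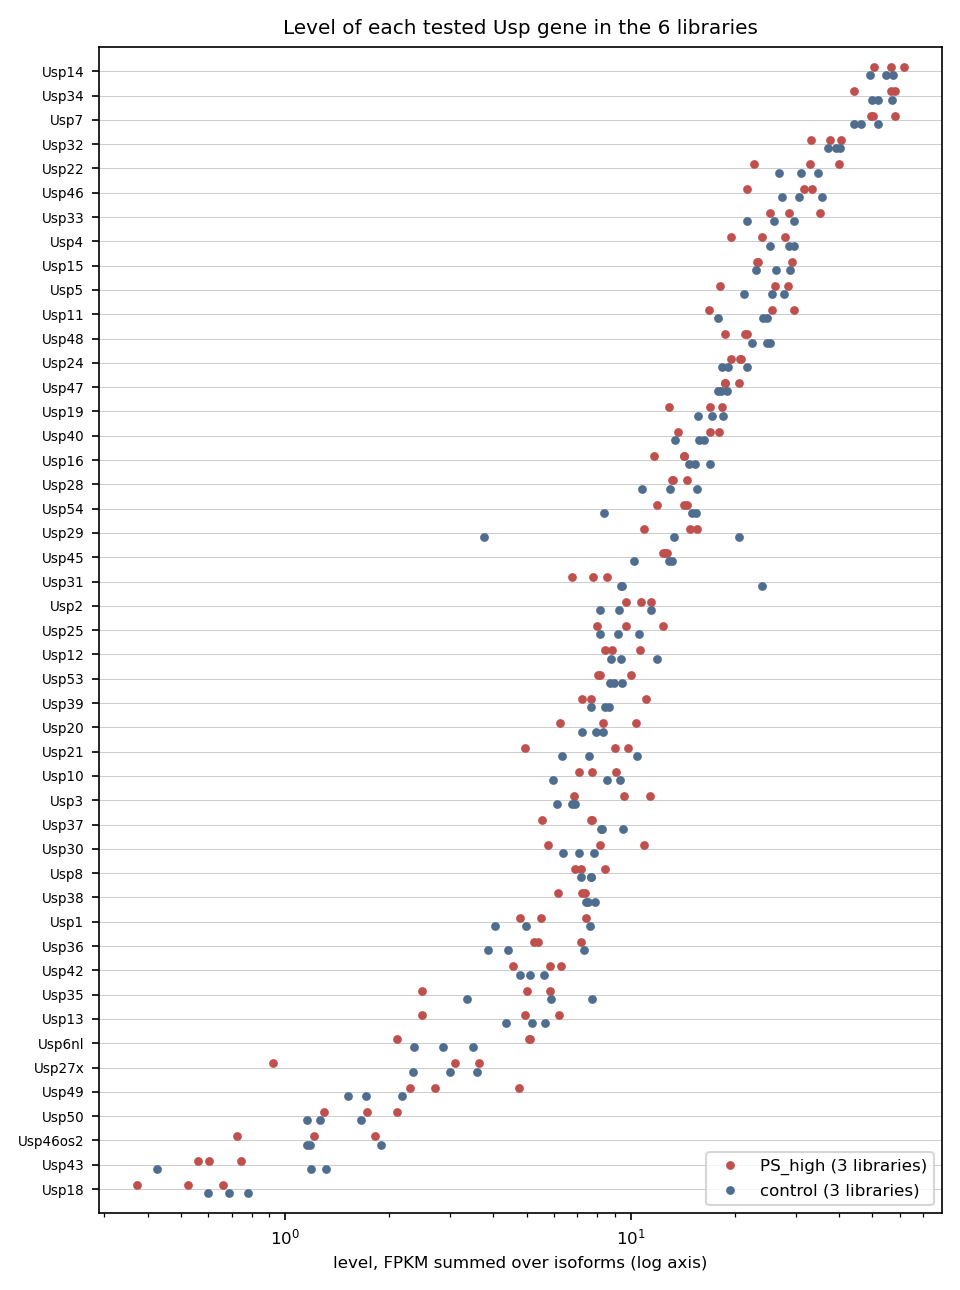
FPKM summed over isoforms (log axis) of the 47 tested Usp genes, ordered by their mean, in each of the 3 PS_high libraries (upper points) and 3 control libraries (lower points). Levels run from 0.604 FPKM for Usp18 to 55.1 FPKM for Usp14 as means over the 6 libraries, and the highest library is at least 3 times the lowest in 6 genes, Usp29, Usp27x, Usp31, Usp49, Usp35 and Usp43. In Usp29 control 1 is low at 3.75 FPKM, in Usp27x PS_high 1 is low at 0.922, and in Usp31 control 3 is high at 23.9.

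The histone and SAGA enzymes remove ubiquitin from histones H2A and H2B, and Usp22 does so as a subunit of the SAGA coactivator complex. Of the 6 tested members of this group, 0 passed, and 2 had log2 differences above 0 and 4 below. Usp49, described as an H2B deubiquitinase, stood out. Its estimated counts were 1730, 951 and 1392 in PS_high and 315, 218 and 368 in control, so that every PS_high library exceeded every control library. In CPM this was 29.0 ± 7.49 in PS_high and 5.82 ± 1.29 in control (SD, n = 3 each). The log2 difference was 2.32 (SE 0.27), with an adjusted p of 0.0886 in edgeR, which missed the threshold. DESeq2 gave 2.32 with an adjusted p of 8.68e-12, and over all 16 alternatives the adjusted p ran from 8.68e-12 to 1.

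The size of the Usp49 difference varied with the measure. Usp49 lies on the plus strand of chromosome 17 (47630690 to 47686738), and its leading isoform, ENSMUST00000024779 (7 exons, 8252 bases), held 1640, 933 and 1339 counts in PS_high and 268, 162 and 252 in control. On FPKM, Usp49 had 4.76, 2.30 and 2.72 in PS_high and 1.52, 1.72 and 2.17 in control, and limma on log2(FPKM + 0.1) gave a log2 difference of 0.76. The symbol Gm20517 covers 6 isoforms on the same strand. Of these, 4 run from the upstream neighbour Med20, a subunit of the Mediator complex, into the Usp49 locus, 1 ends before Usp49 and 1 starts within it. Med20 had 213, 1439 and 1002 counts in PS_high and 1648, 1429 and 1671 in control, with PS_high 1 lowest. Gm20517 had 188, 6 and 425 counts in PS_high and 22, 153 and 175 in control, of which the 4 that run into the locus held 182, 6 and 0 in PS_high and 3, 63 and 49 in control. Summed over the 3 genes, an alternative chosen after the values were seen, the locus had 45.6, 56.0 and 56.3 CPM in PS_high and 40.4, 35.9 and 40.4 in control. The groups again did not overlap, but the log2 difference was 0.44 (SE 0.15, adjusted p = 1 in edgeR). Adding counts to both groups lowers a log2 difference by arithmetic. The groups overlapped for Med20 and for Gm20517. Med20 averaged 19.4 ± 14.5 CPM in PS_high and 30.8 ± 2.54 in control (SD, n = 3 each). Of the 6 libraries, Med20 was lowest in PS_high 1 (4.56 CPM) and highest in PS_high 2 (33.6 CPM). Gm20517 went the other way, at 4.22 ± 4.18 CPM in PS_high and 2.23 ± 1.54 in control. Whether counts were divided differently between the 3 symbols was not tested.

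**Figure D3:**
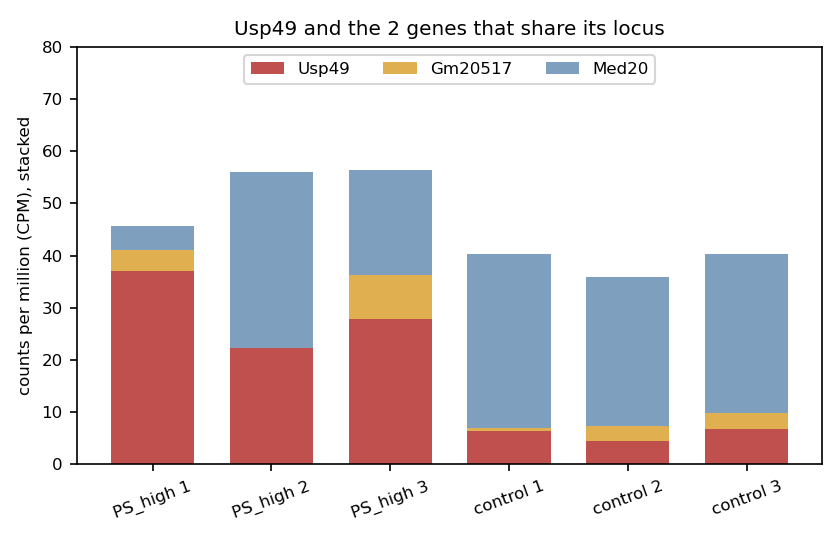
Stacked CPM of Usp49, Gm20517 and Med20 in the 3 PS_high libraries (left) and the 3 control libraries (right). The Usp49 part is between 22.2 and 37.1 CPM in PS_high and between 4.35 and 6.71 in control, while the stacks as a whole reach 45.6 to 56.3 CPM in PS_high and 35.9 to 40.4 in control.

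The promoters of the 3 genes with an unadjusted p under 0.05 are given here because these were the members with the smallest p. Each runs from 250 bases before to 50 bases from the annotated start (RefSeq, GRCm38.p6). Capitals mark matches, on either strand, to the GC box (GGGCGG), the E-box (CACGTG), the CRE (TGACGTCA), the CCAAT box (CCAAT) and the TATA box (TATAAA). The Usp49 window is chr17:47630440-47630739 on the plus strand, that of Usp28 chr9:48985135-48985434 on the plus strand and that of Usp31 chr7:121707393-121707692 on the minus strand.
Usp49: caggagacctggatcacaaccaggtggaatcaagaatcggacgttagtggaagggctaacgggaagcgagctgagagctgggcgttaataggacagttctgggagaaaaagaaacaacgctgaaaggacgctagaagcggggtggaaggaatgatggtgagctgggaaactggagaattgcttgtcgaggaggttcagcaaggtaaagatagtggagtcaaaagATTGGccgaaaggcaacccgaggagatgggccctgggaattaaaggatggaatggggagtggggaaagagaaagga
Usp28: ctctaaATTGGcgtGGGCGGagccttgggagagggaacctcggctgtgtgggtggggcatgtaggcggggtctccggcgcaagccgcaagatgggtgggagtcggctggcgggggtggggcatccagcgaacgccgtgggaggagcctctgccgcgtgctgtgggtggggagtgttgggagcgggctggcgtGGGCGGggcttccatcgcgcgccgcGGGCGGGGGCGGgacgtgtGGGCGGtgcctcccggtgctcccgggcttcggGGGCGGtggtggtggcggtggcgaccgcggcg
Usp31: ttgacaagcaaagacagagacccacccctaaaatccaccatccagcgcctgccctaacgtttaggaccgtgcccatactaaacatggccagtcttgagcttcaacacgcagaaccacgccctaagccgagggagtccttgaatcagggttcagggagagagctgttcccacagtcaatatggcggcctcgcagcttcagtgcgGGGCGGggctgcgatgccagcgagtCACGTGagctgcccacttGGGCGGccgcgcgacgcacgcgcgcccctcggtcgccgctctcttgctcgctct
The Usp49 window held 1 CCAAT box and no GC box, with 51.3% G and C. The Usp28 window held 6 GC boxes and 1 CCAAT box (74.7%), and the Usp31 window 2 GC boxes and 1 E-box (61.7%). Promoters were found for 43 of the 56 members, 44 in all, and 63.6% of these held a GC box, against 35.7% of the 32851 promoters in the table. A CCAAT box was in 31.8% of the Usp promoters and in 37.4% of all, a TATA box in 11.4% and 13.6%, an E-box in 11.4% and 7.15%, and a CRE in 2.27% and 1.79%. The median Usp promoter had 64.0% G and C and 25 CpG, and the median of all promoters 52.7% and 7. Usp49 lay below both medians of the family.

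For the other histone enzymes the difference in counts was smaller than its SE. Usp22 had 22.8, 33.1 and 40.1 FPKM in PS_high and 26.8, 31.0 and 34.8 in control (log2 difference 0.04, SE 0.18). Usp3, which acts on H2A, stood at 9.25 ± 2.29 FPKM in PS_high and 6.60 ± 0.436 in control, with a log2 difference in counts of -0.08. Usp16, which acts on H2A in mitosis, was at -0.11, Usp21 at -0.11 and Usp27x, a relative of Usp22, at -0.28 (log2 of counts, SE 0.14 to 0.41).

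Usp25 and Usp28 are closely related enzymes, and Usp28 stabilises Myc. Usp28 had 48.0, 53.1 and 57.7 CPM in PS_high and 43.6, 40.4 and 41.7 in control. All 3 PS_high libraries lay above the controls, with a log2 difference of 0.34 (SE 0.14, adjusted p = 1 in edgeR). With annotated isoforms only the sign turned, to -0.56, since assembled isoforms held 73.7% of Usp28 counts in PS_high and 49.6% in control. The assembled isoform MSTRG.40424.3 had 878, 698 and 1609 counts in PS_high and 394, 304 and 437 in control. On FPKM, Usp28 stood at 13.6 ± 0.777 in PS_high and 13.1 ± 2.39 in control. Usp25 averaged 80.9 ± 18.4 CPM in PS_high and 74.3 ± 12.1 in control (log2 0.12).

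Usp31 had the largest negative log2 difference, and it rested on 1 library. Its CPM were 106, 114 and 110 in PS_high and 146, 121 and 340 in control. Every PS_high library was below every control library, and control 3 was far above the other 2. The log2 difference was -0.88 (SE 0.37, adjusted p = 1 in edgeR), and -0.27 without control 3. In control 3 the assembled isoform MSTRG.36669.1 held 15490 counts, against 0 in both other controls and 0, 1759 and 0 in PS_high. Usp38 had 57.2, 56.5 and 57.0 CPM in PS_high and 62.2, 63.6 and 58.0 in control, a gap smaller than the SE (log2 -0.11, SE 0.13).

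Usp5, Usp13 and Usp14 serve ubiquitin recycling. Usp5 cleaves unanchored ubiquitin chains, Usp13 is its relative, and Usp14 sits on the proteasome. None of the 3 passed, and their summed level was between 409 and 500 CPM in PS_high and between 426 and 448 CPM in control. Usp14 had 367, 256 and 299 CPM in PS_high and 308, 266 and 276 in control, with overlapping groups (log2 0.12, SE 0.17). Usp5 had 72.0, 97.6 and 123 CPM in PS_high and 88.1, 98.4 and 110 in control (log2 -0.02, SE 0.21). Usp13 had 60.7, 55.2 and 21.4 CPM in PS_high and 51.8, 61.9 and 56.8 in control, with PS_high 3 lowest (log2 -0.31, SE 0.36).

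The 3 partners of the activator protein WDR48 did not pass either. Usp46, which acts on AMPA receptors in neurons, had 21.7, 31.8 and 33.4 FPKM in PS_high and 27.4, 35.8 and 30.7 in control (log2 of counts -0.10, SE 0.16). Its close relative Usp12 had 91.1, 64.8 and 61.8 CPM in PS_high and 96.7, 68.9 and 63.6 in control (log2 -0.07), with library 1 highest in both groups. Usp1, which acts on FANCD2 and PCNA in DNA repair, had 29.2, 24.4 and 25.0 CPM in PS_high and 26.3, 9.73 and 23.1 in control. Control 2 was low for Usp1, and the log2 difference of 0.41 had an SE of 0.35.

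Usp7 and Usp10, both of which act on p53, had log2 differences of 0.19 (SE 0.14) and 0.12 (SE 0.17). Usp7 had 58.3, 49.6 and 50.3 FPKM in PS_high and 44.3, 52.1 and 46.4 in control. For the paralogues Usp4, Usp11 and Usp15 the log2 differences were -0.06, 0.11 and -0.02 (SE 0.14 to 0.20). The summed level of these 3 was nearly flat, between 420 and 444 CPM in PS_high and between 431 and 435 in control.

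Among the 6 enzymes of endosomes and organelles 0 passed, with 4 log2 differences above 0 and 2 below (median 0.02). Usp8, which sorts receptors at endosomes, had 46.9, 51.5 and 43.6 CPM in PS_high and 50.5, 46.8 and 43.2 in control (log2 0.01, SE 0.14). Usp30, which opposes removal of mitochondria by Parkin, had 17.6, 29.9 and 29.8 CPM in PS_high and 22.5, 27.8 and 25.5 in control (log2 0.03). Usp33 had 35.3, 28.8 and 25.3 FPKM in PS_high and 29.7, 21.6 and 25.9 in control, and its relative Usp20 had 33.1, 49.8 and 33.7 CPM in PS_high and 35.7, 27.8 and 31.0 in control. The log2 differences were 0.19 (SE 0.17) for Usp33 and 0.30 (SE 0.21) for Usp20. Usp19, of the endoplasmic reticulum, was at -0.09 and Usp32 at -0.02.

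The large enzymes Usp24, Usp34, Usp47 and Usp48 had log2 differences of 0.08, 0.06, 0.06 and -0.05. Usp34 had 58.2, 44.3 and 56.8 FPKM in PS_high and 57.2, 51.8 and 50.0 in control. Usp48 had the smallest SE of all members (0.12), with 173, 157 and 155 CPM in PS_high and 165, 169 and 168 in control.

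Usp18, which removes the ubiquitin-like protein ISG15 and is induced by interferon, was near the filter, with 0.373, 0.661 and 0.523 FPKM in PS_high and 0.783, 0.598 and 0.689 in control (log2 of counts -0.25, SE 0.36). Of 6 interferon response genes, 3 were above the filter and 0 passed, and Isg15 itself was below it. Usp2, known for a daily rhythm in many tissues, had 52.4, 55.6 and 52.1 CPM in PS_high and 43.9, 41.9 and 54.8 in control (log2 0.19, SE 0.16). Of 7 rhythmic genes 0 passed, and their summed level was between 471 and 624 CPM in PS_high and between 521 and 547 in control. Usp39, a splicing factor without protease activity, was at 0.06, and Usp53 and Usp54, long classed as inactive, at 0.02 and 0.18 (log2 differences).

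Usp29 is an imprinted gene next to Peg3 and had the widest spread of all tested members within a group. Its CPM were 53.2, 85.9 and 66.3 in PS_high and 20.7, 113 and 75.0 in control, a 5.46-fold range among the controls. The log2 difference was -0.02 (SE 0.53). Its leading isoform ENSMUST00000054055 had 27 counts in control 1, against 1345 and 1939 in the other controls. Usp27x followed with a 3.34-fold range among the PS_high libraries, which had 5.29, 15.2 and 17.7 CPM, and Usp6nl with a 2.89-fold range. Usp6nl had 15.1, 43.5 and 39.9 CPM in PS_high and 35.1, 13.1 and 12.5 in control. PS_high 1 and control 1 were apart from the other libraries of their groups, and the log2 difference of 0.70 (SE 0.52) became 1.36 without control 1 and 1.06 without PS_high 1.

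The remaining members had log2 differences between -0.21 and 0.29, and 0 of them passed. They were Usp35 (-0.04), Usp36 (0.20), Usp37 (-0.10), Usp40 (0.07), Usp42 (0.12), Usp43 (-0.03), Usp45 (-0.20), Usp50 (0.29) and Usp46os2 (-0.21). Usp50 overlaps Usp8 on the opposite strand, and Usp46os2 lies opposite to Usp46, so their low counts are uncertain, since no source used here gives the strand setting of the counting.

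The wider ubiquitin pathway showed the same lack of calls. Of 42 tested genes of deubiquitinases and related proteins outside the Usp symbols used here, 0 passed. Their log2 differences were above 0 in 21 and below 0 in 21, with a median of 0.0039, and none had an unadjusted p under 0.05 in edgeR. Of 6 tested ubiquitin, ISG15 and activating enzyme genes 0 passed, and of 19 tested partners of Usp enzymes 0 passed, 13 of them above 0. Wdr48, the activator of Usp1, Usp12 and Usp46, averaged 115 ± 19.7 CPM in PS_high and 103 ± 7.61 in control (log2 0.17, SE 0.16).

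Isoforms were compared next, because gene totals can hide a change of isoform. Of 244 tested Usp isoforms 0 passed in edgeR, while over all 69330 isoforms 0.00433% were higher and 0% lower. An unadjusted p under 0.05 was found for 13 (5.33%, against 3.58%), and 25 had groups that did not overlap (10.2%, against 8.16%). PS_high was higher in 12 of these (3.85% of all isoforms) and lower in 13 (4.31%). DESeq2 called 8 of the 229 Usp isoforms to which it gave an adjusted p (3.49%, against 1.49% of all), of Usp5, Usp21, Usp28, Usp45, Usp49 and Usp54, and limma on FPKM called 0 (0.0317% of all). The leading isoform was the same in all 6 libraries for 20 of 47 genes, among them Usp14, Usp46 and Usp49. In 12 genes, among them Usp24, Usp33 and Usp34, there were 3 or more leading isoforms over the 6 libraries. Assembled isoforms held between 37.4% and 46.4% of member counts in PS_high and between 37.5% and 44.9% in control.

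Within Usp21, the assembled isoform MSTRG.2509.6 had 95, 102 and 88 counts in PS_high and 347, 278 and 373 in control, with clear separation of the groups (log2 -1.65, SE 0.27, adjusted p = 0.576 in edgeR). The retained intron isoform ENSMUST00000144393 of Usp21 had 26, 9 and 10 in PS_high and 100, 42 and 55 in control. The Usp21 total overlapped between the groups. In Usp45, MSTRG.26507.5 had 69, 192 and 166 counts in PS_high and 17, 15 and 31 in control (log2 2.94, SE 0.59, adjusted p = 0.949 in edgeR). It held 2.97 ± 1.62% of Usp45 counts in PS_high and 0.332 ± 0.142% in control (SD, n = 3 each). In Usp28, the retained intron isoform ENSMUST00000215378 had 12, 6 and 15 counts in PS_high and 37, 48 and 53 in control (log2 -1.93, SE 0.41). In Usp54, MSTRG.11586.3 had 57, 43 and 32 in PS_high and 1925, 74 and 1166 in control, where control 2 was close to PS_high.

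Counts of Usp5 lay mostly on one of 2 coding isoforms in PS_high and on the other in control, although the gene total overlapped between the groups. ENSMUST00000047510 (3213 bases) had 3063, 3068 and 5998 counts in PS_high and 1887, 785 and 748 in control. ENSMUST00000122110 (3076 bases) had 0, 809 and 0 in PS_high and 2209, 3892 and 5071 in control. For both isoforms the groups did not overlap, and ENSMUST00000047510 held 87.4 ± 12.5% of Usp5 counts in PS_high and 24.0 ± 17.1% in control (SD, n = 3 each). In edgeR the isoform had a log2 difference of 1.97 (SE 0.52, adjusted p = 1), and the share of ENSMUST00000122110 an adjusted p of 0.715. limma diffSplice gave an adjusted p of 0.0292 for that share. Without PS_high 2, the PS_high library with 809 counts, edgeR gave 0.000795. Leaving out any other library gave no call for this share. Both isoforms have 20 exons and nearly the same ends on chromosome 6 (124815019 to 124829484 and 124815038 to 124829435), so reads they share can be assigned to either.

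Libraries of the same group could differ as widely in their leading isoform. Usp8 was assigned to ENSMUST00000028841 in PS_high 2 (2197 of 2205 counts) and control 2 (1906 of 2347), and to ENSMUST00000110416 in the other 4 libraries. Usp22 was assigned to MSTRG.6064.1 in control 1 (8331 counts) and to ENSMUST00000041683 in the other 5 (7066 to 11830 counts). Over all Usp isoforms tested, 31 of 244 had at least 100 counts in 1 library and 0 in another of the same group (12.7%, against 10.8% of all isoforms).

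The share of an isoform among the counts of its gene was tested for 241 Usp isoforms. Over all 40321 isoforms 0.293% had a higher and 0.372% a lower share at an adjusted p under 0.05 (edgeR diffSpliceDGE), and 1 Usp isoform was called (0.415% lower, 0 higher). The isoform called was the assembled MSTRG.18029.5 of Usp14, which had 0, 0 and 0 counts in PS_high and 0, 0 and 273 in control (adjusted p = 0.014). The call thus rested on control 3. Without control 3 this isoform had no counts left to test, and 0 other Usp shares were called. limma diffSplice called 2 Usp isoforms (0.83%, against 0.149% of all), of Usp28 and Usp5. An unadjusted p under 0.05 was found for 11 Usp isoforms (4.56%, against 5.44% of all). In Usp3, MSTRG.40784.2 had 0, 7 and 1712 counts in PS_high and 1, 2 and 0 in control (adjusted p = 0.0505 in edgeR), so that PS_high 3 alone was high. In the same library MSTRG.40784.4, which led Usp3 in the controls with 1490, 1477 and 1424 counts, had 6 counts, against 174 and 1376 in the other PS_high libraries.

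**Figure D4:**
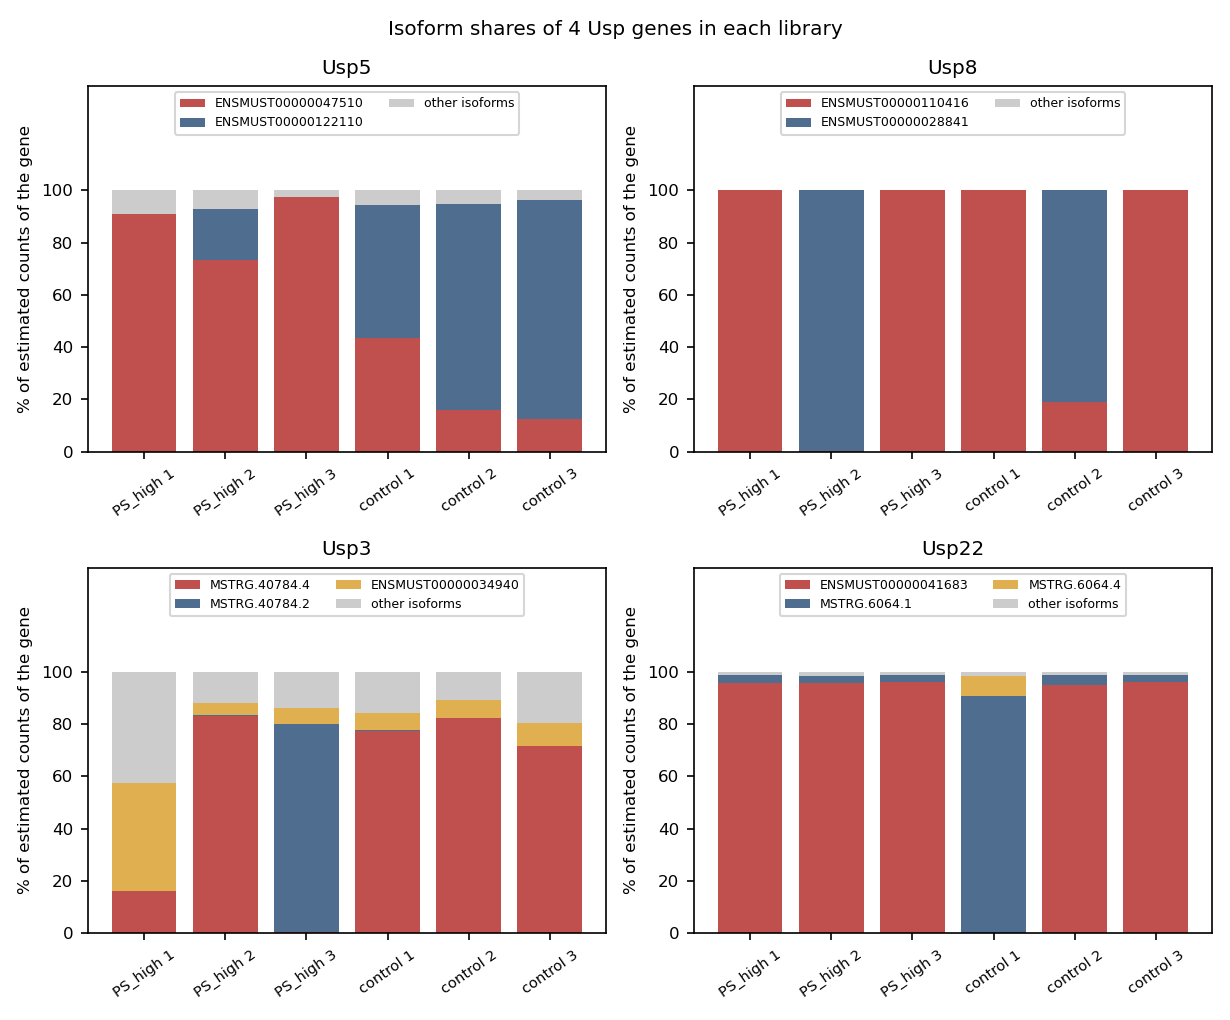
Percent of the estimated counts of Usp5, Usp8, Usp3 and Usp22 held by their main isoforms (colours; grey, other isoforms) in the 3 PS_high libraries (left) and the 3 control libraries (right). In Usp5 the groups lie apart, with ENSMUST00000047510 at 87.4% on average in PS_high and 24.0% in control, while Usp8, Usp3 and Usp22 change isoform in single libraries.

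circRNAs of the family were many but thinly covered. The 169 circRNAs came from 31 of the genes and held 653 back-splice reads, and 131 of them were seen in 1 library only (77.5%, against 66.1% of all circRNAs). Some had nearly the same ends as another, such as mmu_circ_0000223 (123163593 to 123181800) and circRNA4675 (123163594 to 123181800) of Usp15. Each was counted as a circle of its own. Where such entries are the same junction, the number of circles and of those in 1 library may be too high. There were 160 circles of exons, and 9 of introns with 14 reads. Usp circles held 0.639%, 0.517% and 0.674% of all back-splice reads in PS_high and 0.595%, 0.678% and 0.466% in control. The exact 95% intervals of these shares, which cover counting error only, ran from 0.411% to 0.808% in PS_high and from 0.376% to 0.811% in control. Of 21 tested Usp circRNAs 0 passed in edgeR and 0 had an unadjusted p under 0.05. Over all 3275 circRNAs 0% were higher and 0.0305% lower at an adjusted p under 0.05, and 4.95% had an unadjusted p under 0.05. In none of the 21 did the groups lie apart, as they did with PS_high higher in 6.44% and lower in 4.52% of all circRNAs. Entries with nearly the same ends were not merged for these comparisons, and merged values were not tested. DESeq2 also called 0. The SE of a log2 difference ran from 0.53 to 1.60 over the tested circles, so that differences of that size were not detectable at this depth.

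The circle with the most reads was mmu_circ_0000303, which joins exons 2 to 5 of Usp32. It had 12, 11 and 8 reads in PS_high and 8, 17 and 17 in control (log2 -0.24, SE 0.53). mmu_circ_0000222, of exons 2 to 8 of Usp15, had 13, 5 and 4 reads in PS_high and 4, 9 and 10 in control. mmu_circ_0001798, of exons 2 to 8 of Usp3, had 1, 3 and 10 in PS_high and 9, 7 and 13 in control (log2 -0.86, SE 0.74). The groups overlapped in each of these. mmu_circ_0007112, of exons 5 to 10 of Usp14, had 8, 8 and 8 reads in PS_high and 10, 6 and 2 in control. mmu_circ_0014637, of exons 2 to 4 of Usp10, had 6, 0 and 8 in PS_high and 4, 2 and 1 in control. circRNA14018 of Usp10 has nearly the same ends (119931850 to 119942138, against 119931849 to 119942138). It had 0, 5 and 0 reads in PS_high and 0 in each control. The 0 of mmu_circ_0014637 in PS_high 2 thus need not mean absence of the circle. circRNA12310 of Usp40 had 6, 0 and 4 reads in PS_high and 0 in each control, and was in too few libraries to be tested. Of the 140 exon circles with exon numbers, 39 began at exon 2 (27.9%, against 25.0% of all), and these held 49.8% of the reads, against 39.3% over all circRNAs.

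Summed by host gene, Usp34 had the most back-splice reads, 135 over 44 circles, followed by Usp32 with 122, Usp15 with 80, Usp14 with 59 and Usp3 with 58. These 5 genes held 69.5% of the Usp reads. Relative to linear counts, Usp3 had the highest yield of these, with 4.71 back-splice reads per 1000 linear counts in PS_high and 6.13 in control, against 0.669 in PS_high and 0.729 in control for Usp34. Of 18 tested hosts 0 passed in edgeR, where 0% of all 2366 hosts passed in either direction. The groups did not overlap in 2 hosts, both higher in PS_high (11.1%, against 6.34% higher and 3.85% lower of all). They were Usp10, with 6, 5 and 8 reads in PS_high and 4, 2 and 1 in control (log2 1.59, SE 0.88, adjusted p = 0.985 in edgeR), and Usp4, with 5, 2 and 1 in PS_high and 1, 1 and 1 in control. The 5 reads of Usp10 in PS_high 2 were all of circRNA14018, and the other Usp10 reads were all of mmu_circ_0014637. For Usp4 the separation rests on the scaling to library totals, since PS_high 3 and the controls have 1 read each. No host had an unadjusted p under 0.05, and DESeq2 called 0.

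**Figure D5:**
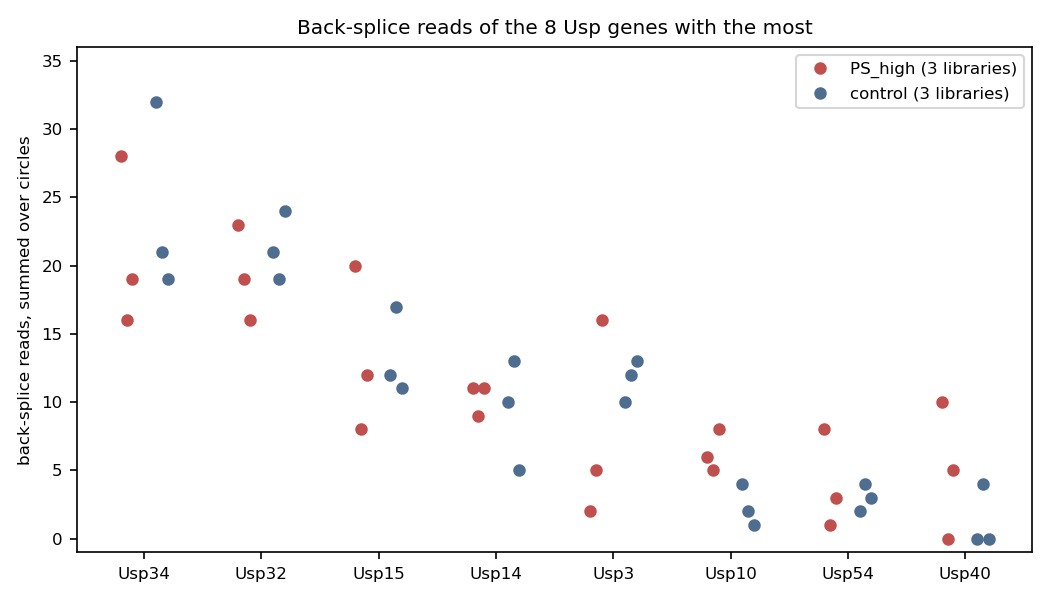
Back-splice reads summed over the circles of a gene, for the 8 Usp genes with the most, in each of the 3 PS_high libraries (left points) and 3 control libraries (right points). Usp34 and Usp32 lead with 16 to 32 reads per library, and of the genes shown only Usp10 has all PS_high libraries (5 to 8 reads) above all controls (1 to 4 reads).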

How the data were processed

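The linear table held FPKM and estimated counts per isoform as deposited by the authors, and per the submitters' processing notes HISAT2, StringTie and TopHat were used, with their versions and the genome build not given in the sources used here. In the circular table the deposited values were back-splice counts and SRPBM, a signal that equals the count scaled by 1 total per library. An isoform with a count of 0 is listed by the authors at 0.0001 FPKM and was set to 0. Per the labels' protocols, libraries were made from total RNA after removal of ribosomal RNA, with a stranded kit.

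Estimated counts, all whole numbers, were summed per gene symbol over isoforms with a class code of =, j, c, o or e. Tests covered 20272 genes and 69330 isoforms whose mean FPKM reached 0.5, and circRNAs and hosts with reads in at least 3 of 6 libraries. PS_high was compared with control across the whole table by two-sided tests in edgeR 4.0.16 under R 4.3.3, scaled by TMM for linear RNA and by the totals behind SRPBM for circRNAs. The threshold was a Benjamini-Hochberg adjusted p under 0.05. Isoform shares were tested with diffSpliceDGE of edgeR on 40321 isoforms. SEs were derived from the F statistic. The fits were tested on simulated data. Alternatives used DESeq2 1.42.0, limma 3.58.1, other filters and scalings, and left out each library.

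Members, gene lists, tests and the genes to name were chosen with earlier results of these data known. Named in full were the 10 members with the smallest p, the 6 highest by FPKM and 15 chosen by symbol, with the isoforms and circRNAs of smallest p or most reads. For 3 against 3 libraries an exact permutation test cannot go below p = 0.1, and none was used. Promoter sequences are those of RefSeq.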

Additional observations from a re-analysis of the deposited data

How the results depend on the processing

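Of the 47 tested genes DESeq2 called 1, Usp49 (over all genes 47, against 5 in edgeR), and of the Usp isoforms 8 (over all isoforms 978, against 3), where edgeR called 0 in each. limma diffSplice called 2 isoform shares (over all shares 60, against 268 in edgeR), ENSMUST00000047349 of Usp28 and ENSMUST00000122110 of Usp5. The main edgeR fit called 1 share, that of MSTRG.18029.5 of Usp14. With a minimum of 1 FPKM 0 shares were called, but MSTRG.18029.5 was then not among the isoforms tested. When each library was left out in turn, the number of shares called ranged from 0 to 3, and the numbers of genes, isoforms, circRNAs and hosts called stayed at 0. The shares called in these fits were of isoforms of Usp3, Usp4, Usp5, Usp14 and Usp46, and they changed with the library left out. The call for the share of isoform MSTRG.18029.5 of Usp14 was kept without control 1 and without control 2, had an adjusted p of 0.0717 to 0.086 without each PS_high library in edgeR, and could not be tested without control 3. With the replicate number as a block 0 genes, 0 isoforms, 1 share, 0 circRNAs and 0 hosts were called. Same-numbered libraries correlated at 0.205, 0.113 and 0.059 in their deviations from the group means. Differently numbered libraries correlated at -0.138 to 0.046, so every same-numbered pair ranked above every other pair. The main tests did not pair the libraries, and whether the numbers mark a pairing was not tested. All other settings gave 0 calls for genes, isoforms, circRNAs and hosts. The log2 difference kept its sign in 350 of 383 fits of named genes, 329 of 358 of isoforms, 42 of 42 of shares, 91 of 96 of circRNAs and 72 of 84 of host sums. Usp49 ranged from 0.44 (with Gm20517 and Med20) to 2.47, Usp28 from -0.56 to 0.41 and Usp31 from -1.14 to -0.16. In each case the cause was not tested. Depth limits circRNAs most, with 653 Usp back-splice reads in all.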

Other observations

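Isoforms assembled within introns carried Usp symbols 19 times and were not part of the gene sums. Together they had 11718, 8371 and 8109 estimated counts in PS_high and 11020, 8861 and 10279 in control, so the groups overlapped. The 3 largest lay in Usp25. MSTRG.15790.1 (1 exon, 9951 bases) had 2488, 1871 and 1599 counts in PS_high and 2145, 1741 and 2126 in control (log2 0.12, SE 0.22). MSTRG.15789.1 had 2469, 1677 and 1605 in PS_high and 2221, 1734 and 2171 in control, and MSTRG.15791.1 had 1731, 1332 and 1275 in PS_high and 1982, 1474 and 1497 in control. The exon-based sum of Usp25 itself was between 3206 and 4744 counts in PS_high and between 3247 and 4320 in control. The intronic MSTRG.11588.1 of Usp54 is given because it had the smallest unadjusted p of the 19 in edgeR. It had 229, 138 and 157 counts in PS_high and 116, 113 and 110 in control, with every PS_high library higher (log2 0.75, SE 0.26, adjusted p = 1 in edgeR). Of all isoforms tested, 3.85% had every PS_high library above every control library.

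The intron circle with the most reads, mmu_circ_0002903 of Usp34, had 5 reads in PS_high 1 and 0 in the other 5 libraries. Usp9x, the relative left out by its symbol, was more abundant than any member, at 95.2 ± 9.87 FPKM in PS_high and 101 ± 4.01 in control (SD, n = 3 each), with a log2 difference in counts of -0.07 (SE 0.13). It and Usp9y hosted 26 circRNAs.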
